A study of Catharus ustulatus with 19 samples.

Results

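The genes described here are those whose lowest value in 9 inland Swainson's thrushes lay above their highest value in 10 coastal ones. They numbered 59 of the 11727 genes measured (0.503%), and 37 further genes (0.316%) met the mirrored rule (highest inland value below the lowest coastal value). Swainson's thrush (Catharus ustulatus) is a songbird of North America whose inland and coastal forms, called ecotypes, are known for different migratory routes. RNA was sequenced from a piece of brain with the hypothalamus and the optic chiasma; the hypothalamus is the brain region that integrates day length, feeding and hormone release. Because the rule chose the genes by their inland and coastal values, every inland against coastal value below is a description of the chosen genes and not a test.

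All birds had been held in captivity for more than 1 year under constant conditions, with a day length that followed the natural one. The groups were migratory inland (5 birds), non-migratory inland (4), migratory coastal (4) and non-migratory coastal (6), collected in August or October 2011 between 2.5 and 8.57 hours after lights on. All 9 inland birds were male, whereas the coastal birds comprised 3 females (migratory coastal replicate 4 and non-migratory coastal replicates 5 and 6) and 7 males. Each bird is a separate animal; ages were not given in the labels. A further migratory inland bird, which the submitters set aside as standing apart, was not analysed here. Values are the authors' normalized expression on a log scale read as log2, so that a difference of 1 is a 2-fold change; the base is not stated, and every fold rests on that reading. The depth per bird is unknown, and values are relative levels within each bird's own profile. In a tissue block, fewer cells of a type and less RNA per cell cannot be told apart.

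The table identifies genes by codes of the form ENSFALG and pairs them with no names. None of the 11727 codes matched the gene table supplied for the species, so no function, position or sequence is given for any of the 59 genes, and the labelled tissue was not checked against marker genes. By the rule used for naming, single genes are given by code where they had the widest gaps or the smallest p-values of a comparison. Other genes are given by counts, ranges and their rank by gap, the lowest inland value minus the highest coastal value.

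The gap had a median of 0.13 log2 over the 59 genes, with quartiles of 0.07 and 0.27. It exceeded 0.5 log2 in 6 genes and 0.25 log2 in 15 genes. The widest gap was 0.90 log2, in ENSFALG00000002337. Its values were 26.46, 25.99, 26.44, 26.52 and 26.15 log2 in migratory inland birds and 26.37, 25.96, 26.15 and 26.45 log2 in non-migratory inland birds. In migratory coastal birds they were 24.74, 25.06, 24.69 and 24.98 log2, and in the 6 non-migratory coastal birds they ran from 24.24 through a median of 24.69 to 24.97 log2. The lowest inland bird thus stood well clear of the highest coastal one, and within each ecotype the statuses overlapped. The means were 26.28 ± 0.22 log2 (SD, n = 9) in inland and 24.71 ± 0.27 log2 (SD, n = 10) in coastal birds, and the difference adjusted for sex was 1.56 ± 0.14 log2 (SE, 2.94-fold).

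The second-widest gap, 0.72 log2, belonged to ENSFALG00000012167, whose mean level (29.13 log2) was higher. It stood at 29.55, 29.49, 29.86, 29.84 and 29.73 log2 in migratory inland birds and at 29.92, 29.65, 30.01 and 29.84 log2 in non-migratory inland birds. The migratory coastal birds had 28.69, 28.20, 28.73 and 28.64 log2, and the non-migratory coastal birds ranged from 28.37 to 28.77 log2 with a median of 28.53. The spread was alike in the ecotypes, at 0.18 log2 (SD, n = 9) in inland and 0.18 log2 (SD, n = 10) in coastal birds.

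**Figure D1:**
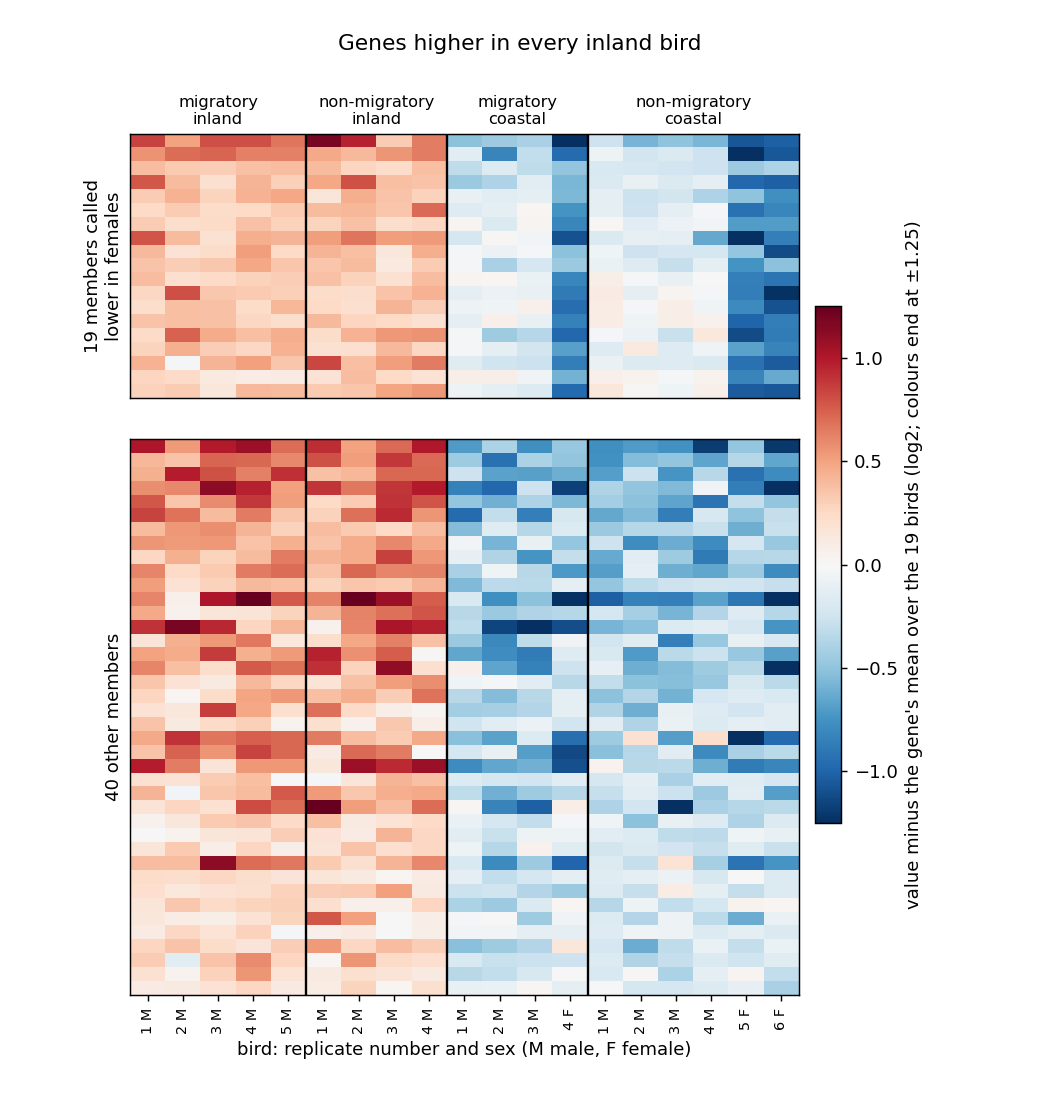
Values of the 59 genes (rows, sorted by gap within each block) in the 19 birds (columns, grouped by status and ecotype), each minus the gene's mean over all birds, in log2. By the rule every inland value of a row lies above every coastal value. Most inland cells are red and most coastal cells blue, but single values can lie on the other side of the row's mean. In the upper block of 19 genes the 3 female columns (F) are the darkest blue. In the lower block of 40 genes their values lie both above and below those of the coastal males.

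At the other end the rule divides genes that hardly differ. The last genes inside it had gaps of 0.0073, 0.0016 and 0.0012 log2, and the first genes outside had overlaps of -0.0014, -0.0015 and -0.0020 log2. Within 0.05 log2 of the border there were 14 genes inside and 18 outside, and within 0.1 log2 there were 21 inside and 72 outside. A further 4 genes had a gap of exactly 0, with 1 value shared by some inland and some coastal bird. Their mean was at least 35.14 log2, near the top of the scale. Shared values also occurred at lower levels. In ENSFALG00000011745, for example, migratory coastal replicate 4 and non-migratory coastal replicate 6 both had 27.07 log2.

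The size of the ecotype difference ranged from 0.17 to 1.62 log2, with a median of 0.67 log2 (1.59-fold). It exceeded 0.5 log2 in 37 of the 59 genes and 1 log2 in 13. With limma at an adjusted p under 0.05, 57 of the 59 genes were called higher in inland birds, where 2.71% of all genes were; as the rule used this contrast, nothing is read from that share. The 2 genes that missed the threshold had differences of 0.44 ± 0.13 and 0.17 ± 0.05 log2 (SE), with limma adjusted p-values of 0.053 and 0.058.

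The genes spanned a wide range of levels that did not reach the top. Their means over the 19 birds lay between 24.53 and 31.79 log2, with a median of 27.43 log2. The means of all genes lay between 23.58 and 35.98 log2, with a median of 28.04 log2. When all genes were split into 4 equal bins by mean level, the lowest bin held 22 of the 59, the second 16, the third 16 and the highest 5. These levels are not per gene length, so an order between genes also reflects length. The ecotype difference was widest among the low genes, with medians of 1.07, 0.53, 0.45 and 0.47 log2 from the lowest to the highest bin. The spread between inland birds was also widest there: the median SD of the chosen genes was 0.24, 0.13, 0.10 and 0.11 log2 in the same order, and that of all genes 0.30, 0.18, 0.15 and 0.13 log2. A gene with a wide spread needs a larger difference to meet the rule, so the rule itself ties these quantities together. The gene with the highest level (31.79 log2) differed by 0.91 log2, and the gene with the lowest (24.53 log2) by 0.89 log2.

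**Figure D2:**
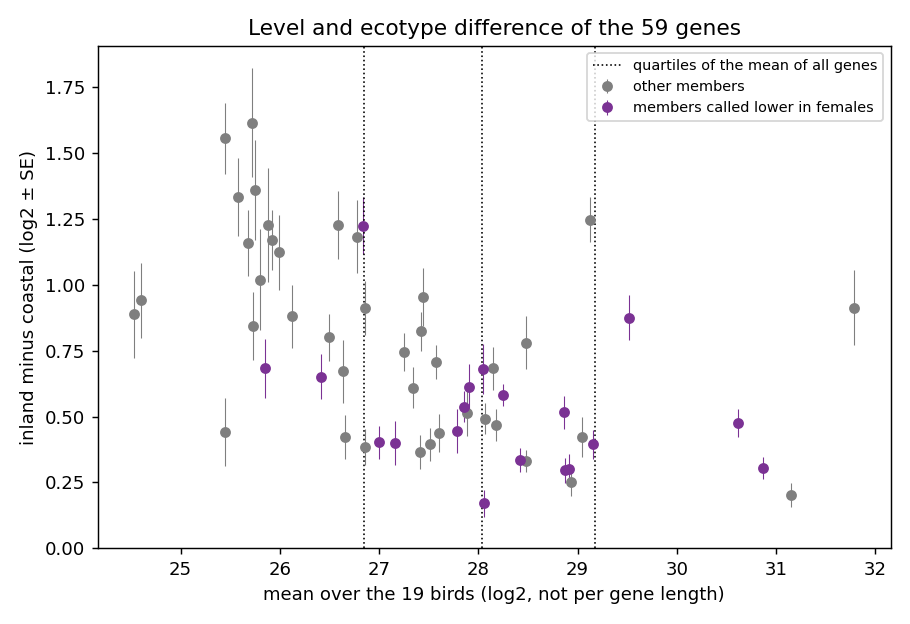
Inland minus coastal difference (log2 ± SE of the limma fit) against the mean over the 19 birds (log2, not per gene length) for the 59 genes; dotted lines are the quartiles of the mean of all genes. Of the 13 differences above 1 log2, 12 lie left of the first line, and 5 genes lie right of the third.

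Within inland birds the chosen genes had a median SD of 0.16 log2 over the 9 birds, against 0.17 log2 for all genes. Within each bin of level it was smaller than that of all genes. From the lowest bin up it was 0.24 against 0.30, 0.13 against 0.18, 0.10 against 0.15 and 0.11 against 0.13 log2. Within coastal birds the chosen genes had a median SD of 0.26 log2 over the 10 birds, against 0.18 log2 for all genes. By bin, in the same order, it was 0.31 against 0.30, 0.17 against 0.19, 0.21 against 0.15 and 0.36 against 0.13 log2. The coastal SD was larger than the inland SD in 45 of the 59 genes; among all genes this was so in 52.9%. When the 3 females were left out, the median SD of the 7 coastal males was 0.14 log2, and it exceeded the inland SD in 29 of the 59 genes (47.7% of all genes). Without the females, the coastal spread was thus no wider than the inland one in the median. As the rule limits how far inland birds may reach down and coastal birds may reach up, these spreads are descriptions too.

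The females were low in a subset of the genes. With limma, 19 of the 59 genes (32.2%) were called lower in females than in males and 1 was called higher, where 3.27% of all genes were called lower and 0.563% higher. This comparison shares its birds with the rule: all females were coastal, and a gene that is low in females meets the rule for those 3 birds more easily, so the share does not stand as independent evidence. In birds, females carry a single Z chromosome and males a pair, and many Z-linked genes are known to be expressed at a higher level in males. The position of the 19 genes was not examined here.

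Among these 19 genes the smallest p-value belonged to ENSFALG00000010000, with rank 31 by gap. The 3 females had 30.06, 30.01 and 29.96 log2, and the 7 coastal males had 30.77 to 30.94 log2 with a median of 30.87. The inland birds, all males, had 31.06 to 31.26 log2 with a median of 31.16. The values thus formed 3 levels with no overlap: inland males, coastal males and coastal females. The difference between females and males was -0.85 ± 0.06 log2 (SE, 1.80-fold, limma adjusted p = 1.7e-08), and the inland birds exceeded the coastal males by 0.31 log2 and the coastal females by 1.15 log2. In all 19 genes the rule places every inland bird above every coastal one. The choice of genes called lower in females favours, but does not require, that every female lies below every coastal male. The sizes below are therefore descriptions. Their means in inland birds exceeded those in coastal males by a median of 0.47 log2 and those in coastal females by a median of 1.20 log2, and in all 19 the 3 females lay below all 7 coastal males. That arrangement occurred in 21 of the 59 genes and in 4.08% of all genes.

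In the other 40 genes, which are those not called lower in females, inland birds exceeded coastal females by a median of 0.72 log2 and coastal males by 0.80 log2. The difference between females and males ran from -0.80 to 0.46 log2 in these genes, above 0 in 25 and below 0 in 15. All 3 females lay below all 7 coastal males in 2 of the 40 (4.08% of all genes) and above them in 2. The share of all genes with the females above was not computed. As the 40 are those not called lower in females, that choice itself leaves few genes with the females below. In ENSFALG00000009297, with rank 51 by gap, the females had 28.09, 28.11 and 28.09 log2 and lay above all 7 coastal males (median 27.75 log2) but below all 9 inland birds (28.13 to 28.40 log2). Its difference between females and males was 0.31 ± 0.08 log2 (SE, limma adjusted p = 0.032). The call was lost in 10 of 28 other fits, which were those with month or day of collection added, the fit without the 2 birds off their month and those without any one of migratory coastal replicates 1, 2 and 4 or non-migratory coastal replicates 1, 3, 5 and 6 (adjusted p up to 0.38). A female set the upper coastal limit in 16 of the 59 genes, and the rule applied to males alone was met by 85 genes (0.725% of all genes), including all 59.

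**Figure D3:**
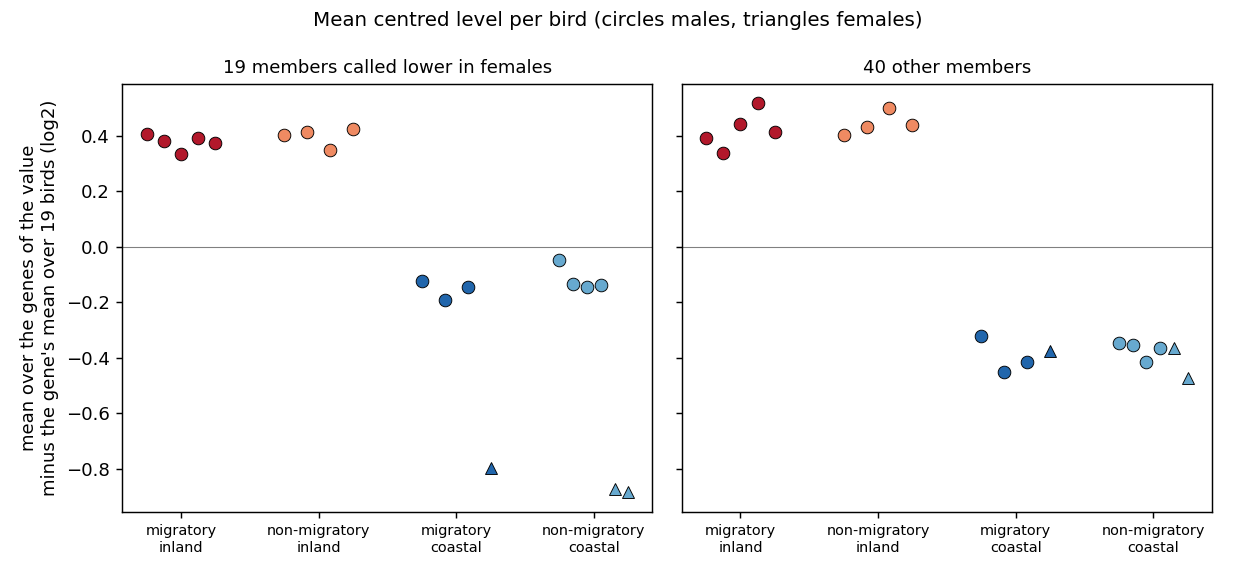
Mean over genes of the value minus the gene's mean over all birds (log2), one point per bird, for the 19 genes called lower in females (left) and the other 40 (right). On the left the females (triangles) lie at -0.80, -0.87 and -0.88 and the coastal males between -0.19 and -0.05; on the right females (-0.37, -0.38 and -0.47) and coastal males (-0.45 to -0.32) overlap.

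No single bird set the border. In inland birds the lowest value of a gene came most often from non-migratory inland replicate 3 (11 genes), migratory inland replicate 2 (10) and non-migratory inland replicate 1 (9), and least often from migratory inland replicate 4 (3). In coastal birds the highest value came most often from migratory coastal replicate 1 (11 genes) and non-migratory coastal replicate 1 (9), and least often from non-migratory coastal replicate 6 (1). Averaged over the 59 genes, the value relative to the gene mean was 0.41 ± 0.05 log2 (SD, n = 5) in migratory inland and 0.43 ± 0.02 log2 (SD, n = 4) in non-migratory inland birds. The coastal averages were -0.37 ± 0.11 log2 (SD, n = 4) in migratory and -0.38 ± 0.15 log2 (SD, n = 6) in non-migratory birds. Leaving out 1 bird at a time, 59 to 67 genes met the rule, with the most without non-migratory inland replicate 3 or migratory inland replicate 2. A bird left out can only keep or add genes under this rule, so the count could not fall below 59.

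Whether the gap differed between migratory and non-migratory birds was then examined. The lowest inland value exceeded the highest coastal value by a median of 0.26 log2 within migratory birds and 0.21 log2 within non-migratory birds. The gap was wider among migratory birds in 30 genes and wider among non-migratory birds in 29. Such a gap can only narrow as birds are added. The migratory gap rests on 5 inland and 4 coastal birds and the non-migratory gap on 4 and 6, so their sizes are not on equal terms. In the model, the difference between the ecotypes had a median of 0.63 log2 in migratory birds and 0.69 log2 in non-migratory birds. It was larger in migratory birds in 32 genes and larger in non-migratory birds in 27. The larger of the 2 differences was less than 1.5 times the smaller in 45 genes and at least 2 times the smaller in 2 genes. The adjusted threshold was met by 51 of the 59 genes in migratory birds (2.05% of all genes higher) and by 42 in non-migratory birds (0.563%), and 38 genes met it in both (0.392% of all genes). The rule required a positive gap in both statuses, so these counts are descriptive.

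The difference between the statuses was tested with limma as an interaction, adjusted over all 11727 genes. None of the 59 genes passed, nor did any other gene. At an unadjusted p under 0.05 there were 5 of the 59 genes (8.47%), where 8.95% of all genes met it. The ecotype difference was larger in migratory birds in 2 of the 5 (4.01% of all genes) and larger in non-migratory birds in 3 (4.94%). The estimates ran from -0.49 to 0.70 log2 with a median of 0.02 log2. The 95% interval lay within ± 0.5 log2 in 32 of the 59 genes and within ± 1 log2 in 54, against 52.2% and 87.6% of all genes. The rule bounds this contrast in part, as a gene whose ecotype difference vanished in one status could not enter.

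**Figure D4:**
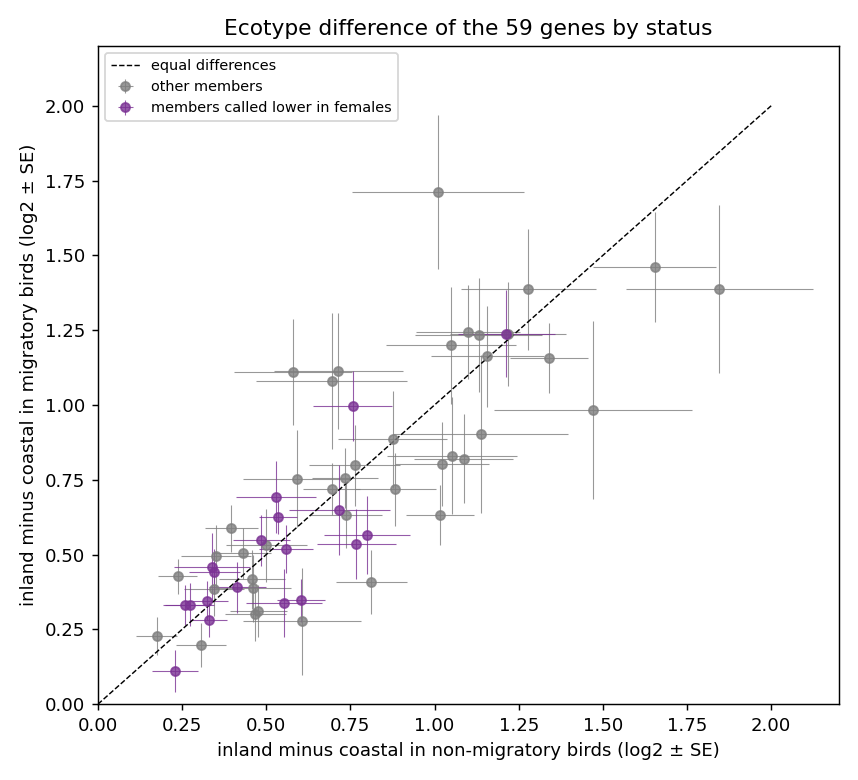
Inland minus coastal difference in migratory birds (vertical) against that in non-migratory birds (horizontal), in log2 ± SE of the limma fit, for each of the 59 genes; the dashed line marks equal differences. The points lie on both sides of the line, 32 above and 27 below.

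Of the genes with the larger difference in non-migratory birds, ENSFALG00000007623 had the smallest p-value. Its values were 27.69, 27.53, 27.46, 27.75 and 27.60 log2 in migratory inland birds and 27.29, 27.32, 27.21 and 27.00 log2 in migratory coastal birds. The non-migratory inland birds had 27.51, 27.72, 27.87 and 27.92 log2, and the non-migratory coastal birds 26.82 to 27.15 log2 with a median of 26.94. The ecotypes lay closer together in migratory birds, at 0.41 ± 0.11 log2 (SE), than in non-migratory birds, at 0.81 ± 0.11 log2. The difference between these was -0.40 log2 (95% interval -0.71 to -0.10), with a limma adjusted p of 0.45. In the opposite direction, ENSFALG00000012229 differed by 0.43 ± 0.06 log2 (SE) between the ecotypes in migratory birds and by 0.24 ± 0.06 log2 in non-migratory birds. That difference of 0.19 log2 (95% interval 0.03 to 0.35) had a limma adjusted p of 0.52. The largest estimate, 0.70 log2 in ENSFALG00000011817, had an interval of -0.03 to 1.43 log2.

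The migratory state itself was a comparison that the rule did not use directly. The rule bounds it in part, as a wide status difference within an ecotype makes it harder for a gene to enter. The shares below are therefore not free of the rule. Over both ecotypes, none of the 59 genes and none of all genes was called between migratory and non-migratory birds with limma. At an unadjusted p under 0.05 there were 3 of the 59 genes (5.08%), where 8.19% of all genes met it; all 3 were lower in migratory birds (4.05% of all genes). In inland birds 0 genes of the 59 were called (0.00853% of all genes) and 4 (6.78%) had an unadjusted p under 0.05 by limma, against 6.29% of all genes, and in coastal birds 0 were called and 3 (5.08%) did, against 11.1%. The median status difference of the 59 genes over both ecotypes was 0.00 log2, and its 95% interval lay within ± 0.5 log2 in 57 of them (87.4% of all genes). For these 57 genes a status difference as large as 0.5 log2 over both ecotypes was outside the interval. Status nearly coincided with the month of collection, and in only 2 birds did they differ, so status and month can hardly be told apart.

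Among these genes ENSFALG00000011745 had the smallest p-value for status, both over the ecotypes and in inland birds. It stood at 27.90, 27.48, 27.58, 27.59 and 27.71 log2 in migratory inland birds and at 27.85, 28.05, 28.12 and 28.21 log2 in non-migratory inland birds. Migratory inland replicate 1, the only migratory bird collected in August, was the highest of its group and overlapped the non-migratory inland birds. The migratory coastal birds had 27.08, 26.96, 27.06 and 27.07 log2, and the non-migratory coastal birds 26.84 to 27.26 log2 with a median of 27.07, so the coastal statuses overlapped. The inland difference was -0.41 ± 0.10 log2 (SE, limma adjusted p = 0.56), and over both ecotypes it was -0.22 ± 0.07 log2 (adjusted p = 0.42). With month of collection added, these estimates were -0.22 log2 in inland birds and -0.03 log2 over both ecotypes, and with day of collection added -0.15 and 0.02 log2, so the direction over both ecotypes turned.

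In inland birds the smallest p-value upward was that of ENSFALG00000012229, at 28.70 ± 0.04 log2 (SD, n = 5) in migratory inland and 28.58 ± 0.05 log2 (SD, n = 4) in non-migratory inland birds. Its estimate was 0.12 ± 0.06 log2 (SE, limma adjusted p = 0.78), and 0.18 log2 with month added. In coastal birds ENSFALG00000011817 had 25.43, 24.61, 24.33 and 24.65 log2 in migratory birds, against 25.02 to 25.62 log2 with a median of 25.39 in non-migratory birds. Migratory coastal replicate 1 was the exception that overlapped the non-migratory range, and the difference of -0.62 ± 0.24 log2 (SE) had a limma adjusted p of 0.36; it was -0.36 log2 with month added. ENSFALG00000007623 differed by 0.26 ± 0.10 log2 (SE) in coastal birds with the same adjusted p, and by 0.38 log2 without migratory coastal replicate 4. Over both ecotypes the smallest p-value upward was that of ENSFALG00000003265, at 0.10 ± 0.05 log2 (SE, limma adjusted p = 0.68), and 0.15 log2 with day added.

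**Figure D5:**
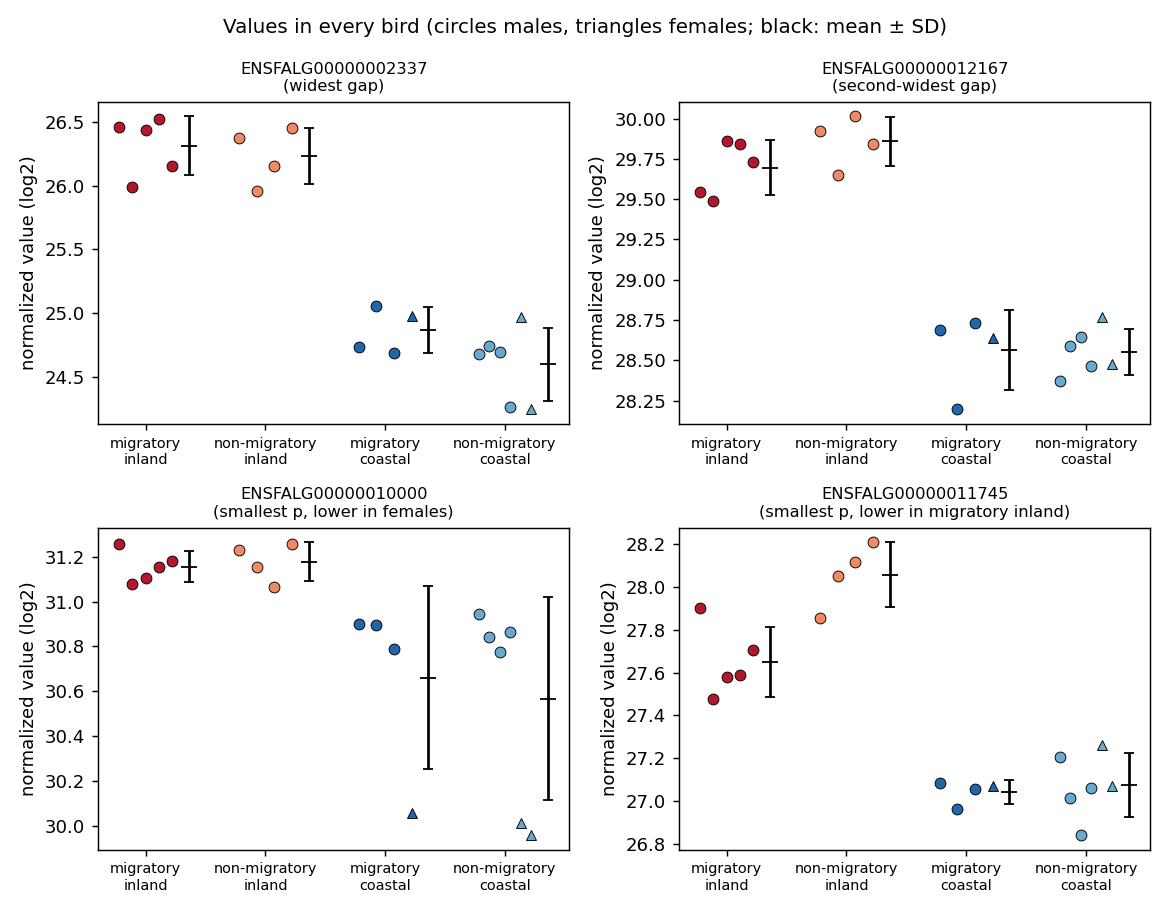
Normalized values (log2) of 4 of the genes in every bird by group, with the mean ± SD of each group in black; circles are males and triangles females. In the upper panels all inland birds lie far above all coastal birds, in ENSFALG00000010000 the 3 females (29.96 to 30.06) lie below the coastal males, and in ENSFALG00000011745 the migratory inland birds lie lower than the non-migratory inland birds except for 1 bird at 27.90.

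The hour of collection was a further comparison that the rule did not use directly. It is bounded in the same way, as a wide change with the hour within an ecotype makes entry harder. None of the 59 genes was called for a slope with the hour after lights on with limma, where 0.0938% of all genes were. At an unadjusted p under 0.05 there were 6 (10.2%), against 10% of all genes. The smallest p-values were those of ENSFALG00000010462, at 0.03 ± 0.01 log2 per hour (SE, limma adjusted p = 0.40), and ENSFALG00000009024, at -0.03 ± 0.01 log2 per hour (adjusted p = 0.44). Both were among the 19 genes called lower in females. In the fit with no sex term, the slope of ENSFALG00000010462 was -0.03 log2 per hour and that of ENSFALG00000009024 -0.08 log2 per hour.

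Beyond the ecotype difference the mean correlation between the genes was low. After the group means and the sex term were removed, the correlation across the 19 birds averaged 0.028 over all pairs of the 59 genes and 0.00027 over all pairs of the 11725 genes that varied. Among the 19 genes called lower in females it averaged 0.043 and among the other 40 genes 0.037. All pairs share the same 19 birds and the same normalization, and these averages are descriptions. In such an average positive and negative correlations cancel, so it does not show how strongly single pairs vary together.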

How the data were processed

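RNA-seq libraries of 19 birds were made with an Illumina TruSeq kit, per the labels' protocols. If the version of the kit used did not mark strand, overlapping antisense genes cannot be told apart. Trim Galore 0.3.1, TopHat2 and HTSeq were used, per the submitters' processing notes; no source used here gives the genome build or annotation. The authors deposited normalized values (per the table's name, exon sums of protein-coding genes under TMM scaling). The deposited values lie on a log scale read as log2, with nearly the same distribution in every bird, so depth is unknown and no counting error can be given. They were used without a pseudocount.

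A linear model with 4 group means and a sex term was fitted to all 19 birds and 11727 genes with limma 3.58.1 (R 4.3.3; trend and robust settings), and two-sided p-values were adjusted by Benjamini-Hochberg over all genes (threshold 0.05). The hour was added as a slope. Differences are model estimates, except those between inland birds and coastal males or coastal females, which are of plain means. SDs are of plain values. The procedure was checked on simulated data with independent errors around each gene's mean. The recovery found there is not given here, so no power is read from it for comparisons in which no gene was called. The members were found by the rule stated in the report; they and the tests were chosen with earlier results of these data known. Genes were named by the 2 widest gaps and, for each tested comparison, the smallest p in each direction. Alternatives left out each bird and varied the sex term, month, day (added after seeing the data), hour, bird weights, moderation, scaling and a filter on low genes. Replicate numbers follow accession order and pair no birds.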

Additional observations from a re-analysis of the deposited data

Results flagged for a closer look

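In 48 tests of a group of birds on a named gene or on the average of the 59 genes, 3 values stood far from the rest of their group, where about 1 in 20 tests, or 2.4 here, does so by chance. All 3 belonged to migratory coastal replicate 4, the only female of that group, and to genes called lower in females. In ENSFALG00000003265 this bird had 27.30 log2, against 27.72 to 27.76 log2 in the other 3 birds. In ENSFALG00000010000 it had 30.06 log2, against 30.79 to 30.90 log2. In ENSFALG00000009024 it had 27.97 log2, against 28.85 to 28.98 log2. ENSFALG00000010000 was named for its difference between the sexes, so its flag is tied to that choice and the number by chance is no yardstick for it. The chance number takes the birds of a group as alike, so it is no plain yardstick for ENSFALG00000003265 and ENSFALG00000009024 either. Within this group sex cannot be tested, as it holds 1 female. The 2 females of the non-migratory coastal group also lay below its males. They had 27.35 and 27.09 against 27.47 to 27.73 log2 in ENSFALG00000003265. In ENSFALG00000010000 they had 30.01 and 29.96 against 30.77 to 30.94 log2, and in ENSFALG00000009024 28.12 and 27.83 against 28.86 to 29.01 log2.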

How the results depend on the processing

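The number of genes meeting the rule was 38 when a gap of at least 0.1 log2 was asked for and 117 when 1 bird was allowed on the wrong side. Without the lowest of the 4 bins of genes by level it was 37, which is the count of chosen genes outside that bin. It was 59 to 67 leaving out each bird and 85 in males only, but fewer birds can only keep or add genes under this rule. After quantile normalization again it was 59, a small change for values with nearly the same distribution in every bird. With median-of-ratios rescaling it was 60 (58 of the 59 among them). The median ecotype difference lay between 0.61 and 0.65 log2 in migratory and between 0.62 and 0.70 log2 in non-migratory birds leaving out each bird. The counts of members called for the interaction, for status (both ecotypes, inland, coastal) and for the hour were 0 in every fit run. Members called for sex numbered 15 to 21 leaving out each bird. In the main fit they numbered 20, with 19 lower and 1 higher in females, where 3.83% of all genes were called. The shares of all genes called for sex in the alternative fits are not given here, so those counts are descriptions. At an unadjusted p under 0.05 the member counts ran from 3 to 6 for the interaction (6.63% to 12.2% of all genes). For status they ran from 1 to 4 over both ecotypes (3.24% to 9.98%) and 1 to 5 in inland birds (3.23% to 10.6%). In coastal birds they were 1 to 6 (5.26% to 13.4%), and for the hour 3 to 8 (7.34% to 12.3%). These ranges include the fit without the lowest bin of genes, which holds only 37 of the 59. A low count can thus reflect absent genes. A fit with day of collection as a term was chosen after seeing the data; its median ecotype differences were 0.60 log2 in migratory and 0.68 log2 in non-migratory birds, with 16 members called for sex. Named estimates that moved by over 1.5 times with month, day or sex terms or without 1 bird are given beside those genes; over both ecotypes ENSFALG00000011745 was 0.02 log2 with day added, and the slope of ENSFALG00000010462 was -0.03 log2 per hour with no sex term. No paired analysis was possible because the labels carry no replicate numbers; the dates allowed only the day term. Unknown depth, 3 females (all coastal) and the overlap of status with month limit the comparisons.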
